A study of Mus musculus with 2 samples.

Results

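Prostaglandins and leukotrienes are lipid signals made from arachidonic acid. Cyclooxygenases turn arachidonate into prostaglandin H2, which prostaglandin E or D synthases then finish, while 5-lipoxygenase with its partner FLAP makes leukotriene A4, which is finished as leukotriene B4 or C4. In the gut, inflamed myeloid cells are a known source of prostaglandin E2, and resident macrophages are known for cyclooxygenase 1 and prostaglandin D synthase. The 10 genes described here are the rows of both count matrices with the symbols Ptgs1, Ptgs2, Ptges, Hpgds, Ptger2, Ptger4, Alox5, Alox5ap, Lta4h and Ltc4s, and all 10 were found among the 31053 genes of the files.

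The cells came from the colons of bone marrow chimeras, in which donor marrow marked by CD45.2 had been put into CD45.1 recipients. Donors of the IL-10R KO library (KO) lacked Il10rb, a subunit of the IL-10 receptor. Donors of the IL-10R/CerS2 DKO library (DKO) lacked Il10rb and Cers2, the synthase of very long chain ceramides, through an allele made by CRISPR, so loss of Il10rb was shared by both. The labels name no deletion in the recipients, and give neither the number nor the age of the mice. Cells had been sorted on CD45, CD11b, CD11c and CD64, a gate aimed against neutrophils and lymphocytes. Each genotype was a single library. The differences below therefore lack a replicate check and carry no p-value, and genotype, mouse, sort and library cannot be told apart.

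The KO library held 2584 barcodes and 12549471 UMIs (tagged molecules), the DKO library 742 barcodes and 3414944 UMIs, with 1 barcode in common, and 2443 and 730 cells passed the filter of 300 to 5000 genes and at most 10% mitochondrial UMIs. Cers2, a check on the labels, had 552 UMIs in KO and 2 in DKO. Il10rb transcripts were seen in both, with 74 and 14 UMIs, and were not used as a check. A marker gate gave 1526 KO and 330 DKO monocyte/macrophage cells, with 5551 and 5631 UMIs in the median cell, so that the label of colon macrophages was met by 1526 of 2443 kept cells in KO and 330 of 730 in DKO. Despite the sort, the gates also held 143 KO and 41 DKO neutrophils, 202 and 159 B cells, 151 and 63 T cells, 136 and 45 cytotoxic innate-like lymphocytes and 43 and 22 dendritic cells. Within the monocyte/macrophage gate, Arg1/Nos2 inflammatory macrophages (at least 4 of the 9 markers detected, among them Arg1, Nos2, Inhba, Spp1 and Vegfa) were 230 of 1526 KO cells and 3 of 330 DKO cells. Mrc1 resident-like macrophages were 45 and 47 cells, C1q-high macrophages 426 and 91, and classical monocytes 381 and 79. No member served as a marker.

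The upstream sequences of 4 members are shown because 2 pairs lay in the same states below, Ptgs2 with Ptges and Ptgs1 with Hpgds. They are the 250 bases before the RefSeq start on GRCm38.p6, at chr1:150099781-150100030 (+ strand) for Ptgs2, chr2:30903298-30903547 (- strand) for Ptges, chr2:36230176-36230425 (+ strand) for Ptgs1 and chr6:65144731-65144980 (- strand) for Hpgds, each written 5′ to 3′ on the gene's strand. For Ptges and Hpgds this start lies inside the GENCODE gene, whose outer 5′ end is at 30929863 for Ptges and at 65144908 for Hpgds. All of the Ptges window therefore lies within the annotated gene. So does the part of the Hpgds window nearest its start, with the marked motif. RefSeq had such a sequence for 9 of the 10 members, all but Alox5ap. Capitals mark matches to 7 motifs searched on both strands, some of which were chosen after the sequences had been looked at.
Ptgs2: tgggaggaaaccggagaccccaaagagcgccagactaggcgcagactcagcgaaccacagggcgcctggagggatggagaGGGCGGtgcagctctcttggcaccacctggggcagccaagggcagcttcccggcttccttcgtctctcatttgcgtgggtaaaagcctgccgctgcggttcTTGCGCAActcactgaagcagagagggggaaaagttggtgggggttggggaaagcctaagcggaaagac
Ptges: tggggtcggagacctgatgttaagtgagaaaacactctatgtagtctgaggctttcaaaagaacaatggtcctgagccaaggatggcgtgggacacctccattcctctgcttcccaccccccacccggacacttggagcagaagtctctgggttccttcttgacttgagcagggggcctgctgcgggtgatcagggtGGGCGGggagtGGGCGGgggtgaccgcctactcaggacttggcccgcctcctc
Ptgs1: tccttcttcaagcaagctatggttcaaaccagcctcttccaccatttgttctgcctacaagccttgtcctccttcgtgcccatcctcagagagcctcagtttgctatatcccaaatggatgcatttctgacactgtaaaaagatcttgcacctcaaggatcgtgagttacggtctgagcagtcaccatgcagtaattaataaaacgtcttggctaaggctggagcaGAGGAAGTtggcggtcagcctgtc
Hpgds: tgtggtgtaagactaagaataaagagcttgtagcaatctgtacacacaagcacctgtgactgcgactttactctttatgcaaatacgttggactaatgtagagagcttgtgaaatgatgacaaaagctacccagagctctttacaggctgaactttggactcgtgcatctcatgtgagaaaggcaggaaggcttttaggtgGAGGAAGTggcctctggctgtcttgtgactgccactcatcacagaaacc

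Ptgs2 held the palindrome TTGCGCAA, a C/EBP-type site, 69 to 62 bases before its start, which 0.164% of the 32851 upstream sequences in the table held. A single GC box, GGGCGG, lay in Ptgs2 and 2 lay in Ptges, 53 to 48 and 42 to 37 bases before its start, while 32.7% of all upstream sequences held that motif. Ptgs1 and Hpgds each held GAGGAAGT, an ETS-type site, 24 to 17 and 49 to 42 bases before the start, a motif found in 2.44% of upstream sequences. None of these 4 windows held ACGTCA (6.47% of all), CACGTG (6.02%), TGANTCA (6.75%) or TATAAA (12.4%), and none of the capitals overlap. Ltc4s, like Ptgs1 and Hpgds, was higher in KO C1q-high macrophages than in the other monocyte/macrophage cells (below). Its upstream sequence, not shown, had no match to any of the 7 motifs, GAGGAAGT included. Bases after the RefSeq start were not searched, so a site there would not be seen. The matches describe letters and nothing was measured on them here.

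In KO, the cyclooxygenases lay mainly in different states. Ptgs2, the inducible cyclooxygenase (chr1:150100031-150108227, GENCODE M21 on GRCm38, the same assembly as mm10), was concentrated in the Arg1/Nos2 inflammatory macrophages of KO. These 230 cells held 2282 of the library's 3980 Ptgs2 UMIs, 57.3%, and reached 1442 CPM (counts per 1000000 UMIs of the class), against 185 CPM in the other monocyte/macrophage cells. The state was 7.80-fold higher (log2 ratio 2.96, exact 95% counting interval 2.87 to 3.06). Ptgs2 was spread unevenly inside that state, with 0 UMIs in 55 cells, 5 or more in 104, a median of 4 and a highest count of 115. In DKO, this state had 3 cells, of which 1 held all 3 Ptgs2 UMIs.

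Elsewhere in KO, Ptgs2 stood at 480 CPM (interval 400 to 570) in neutrophils, 244 CPM in monocyte-to-macrophage intermediates, 226 CPM (208 to 244) in C1q-high macrophages, 215 CPM in monocyte/macrophage cells of no named state, 125 CPM (109 to 142) in classical monocytes and 17.0 CPM in nonclassical monocytes. Among DKO classes of at least 20 cells the order began with neutrophils at 274 CPM (168 to 424) and the cells of no named state at 267 CPM (224 to 317), whose intervals overlapped, and C1q-high macrophages followed at 161 CPM (131 to 196). The lymphocytes lay near background: B and T cells together held 1 Ptgs2 UMI in 353 KO cells and 0 in 222 DKO cells. Ungated cells of KO held 433 CPM and those of DKO 119 CPM, and were shallow, with 1029 UMIs in the median KO cell.

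**Figure D1:**
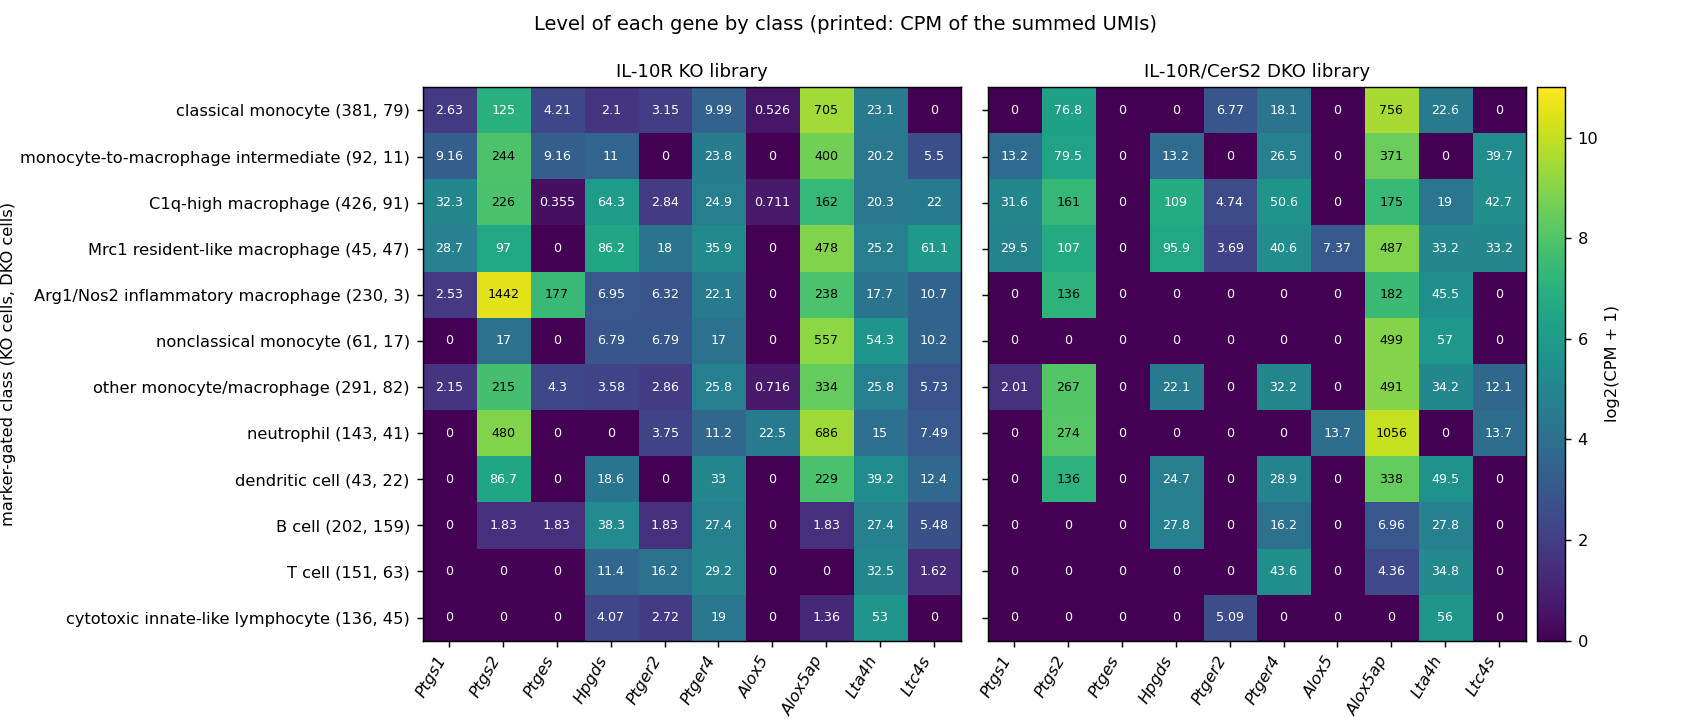
Level of each of the 10 genes in 12 marker-gated classes, as CPM of the summed UMIs (printed) and log2(CPM + 1) (colour), in the KO library (left) and the DKO library (right). The highest value is Ptgs2 in KO Arg1/Nos2 inflammatory macrophages (1442 CPM), a class with 3 DKO cells, and the numbers after each class name are its KO and DKO cells.

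Over all monocyte/macrophage cells, Ptgs2 was 411 CPM in KO and 153 CPM in DKO. It was lower in DKO by 1.43 on the log2 scale (interval -1.60 to -1.26). A gene was called where the ratio was at least 2-fold and its counting interval left out 0, and genes needed 10 UMIs in the 2 libraries together. Of the 9 members so measured, Ptgs2 and Ptges were called lower and Hpgds higher, where 2.32% of the 10817 genes measured were called lower and 3.25% higher. The median log2 ratio was 0.23 over the 9 members and 0.080 over all genes measured.

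The ratio lay nearer 0 once 1 state was left out. Without the Arg1/Nos2-gated cells, which were 15.1% of KO and 0.909% of DKO monocyte/macrophage cells, the KO level was 185 CPM and the DKO level 153 CPM (log2 ratio -0.27, -0.46 to -0.095). With the states of at least 10 DKO cells weighted by their UMIs in KO, it was -0.35. In C1q-high macrophages, 226 CPM in KO stood against 161 CPM in DKO (log2 -0.48, -0.80 to -0.18), and in classical monocytes 125 CPM against 76.8 CPM (log2 -0.68, -1.26 to -0.18). Neutrophils had 128 UMIs in 143 KO cells and 20 in 41 DKO cells (log2 -0.78, -1.56 to -0.12). Mrc1 resident-like macrophages held 97.0 and 107 CPM, and dendritic cells 86.7 and 136 CPM, with intervals of the ratio that included 0. None of the ratios in these 5 classes was called. The intermediates, at 244 and 79.5 CPM, were called lower in DKO (log2 -1.51, -3.09 to -0.46), on 6 DKO UMIs in 11 cells. In the Arg1/Nos2 state, at 1442 and 136 CPM, the log2 ratio was -3.18 (-5.68 to -1.85) on 3 DKO UMIs, all in 1 of 3 cells. The interval does not cover the spread between cells. In the cells of no named state Ptgs2 was higher in DKO, 267 against 215 CPM (log2 0.32, 0.010 to 0.61), and 29 of the 133 DKO UMIs there came from 1 cell. Of the cells of no named state, 89.3% in KO and 76.8% in DKO fell in clusters named monocyte/macrophage.

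The share of cells with a Ptgs2 UMI went the same way as the level. With each cell thinned to 1500 UMIs, which left out 54 KO and 12 DKO cells, 23.0% (20.9 to 25.3%) of KO and 13.5% (9.96 to 17.8%) of DKO monocyte/macrophage cells had one. Unthinned, the shares were 38.1% and 25.8%. The thinned share was 52.8% in KO Arg1/Nos2 inflammatory macrophages, 21.5% and 16.7% in KO and DKO C1q-high macrophages, and 12.5% and 7.59% in KO and DKO classical monocytes. In B and T cells, which should lack the transcript, it was 0 of 337 KO cells, which allows a share of cells with a UMI of up to 0.890% at 3 counts (exact upper limit 1.09%). The median B or T cell was shallower, at 2806 UMIs in KO and 2690 in DKO.

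**Figure D2:**
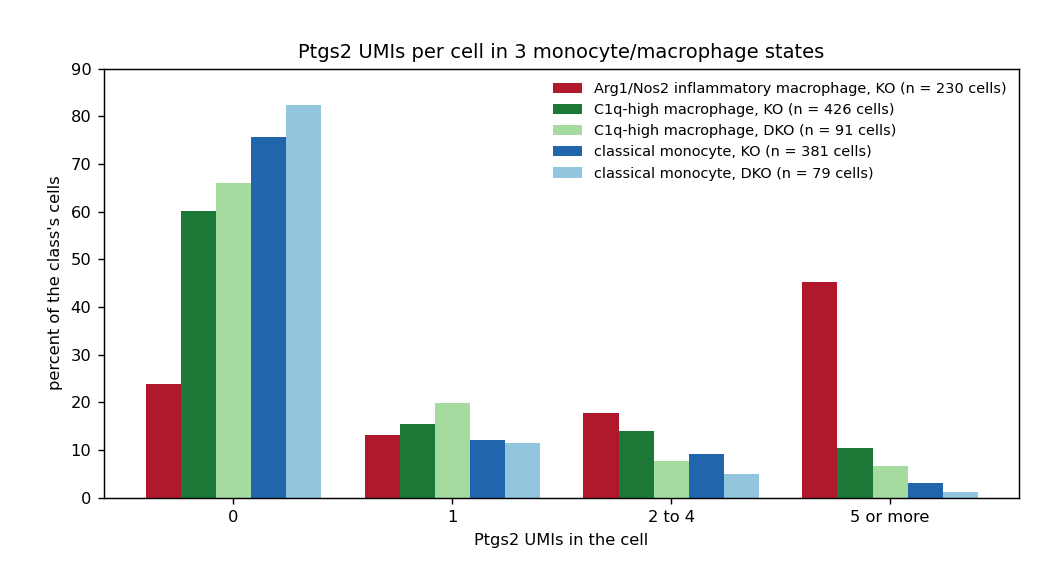
Percent of cells (y axis) with 0, 1, 2 to 4 or 5 and more Ptgs2 UMIs (x axis), as deposited, in Arg1/Nos2 inflammatory macrophages of KO and in C1q-high macrophages and classical monocytes of both libraries. Of the 230 Arg1/Nos2-gated KO cells 104 had 5 or more, against 44 of 426 KO C1q-high macrophages.

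Ptgs1, the constitutive cyclooxygenase (chr2:36230426-36252272), lay mainly in C1q-high macrophages, which also held Ptgs2 in both libraries. C1q-high macrophages held 91 of the 123 KO UMIs, 74.0%, and 20 of the 31 DKO UMIs, 64.5%, and their level was 32.3 CPM (26.0 to 39.7) in KO. The DKO level was 31.6 CPM (19.3 to 48.8). Mrc1 resident-like macrophages held 28.7 and 29.5 CPM on 8 UMIs in each library (log2 0.037, -1.57 to 1.65). KO Arg1/Nos2 inflammatory macrophages had 2.53 CPM and KO classical monocytes 2.63 CPM, and no UMI of Ptgs1 was seen in neutrophils, dendritic cells, B cells, T cells or cytotoxic lymphocytes of either library. Among KO monocyte/macrophage cells, C1q-high macrophages exceeded the rest 7.76-fold. The cyclooxygenases did not exclude each other by cell. Of the 86 KO monocyte/macrophage cells with a Ptgs1 UMI, 41.9% also had a Ptgs2 UMI, against 37.8% of those without. In DKO it was 5 of 24 cells against 26.1%. DKO C1q-high macrophages held 161 CPM of Ptgs2, against 149 CPM in the other monocyte/macrophage cells (log2 0.12, -0.24 to 0.47). Ptgs1 over all monocyte/macrophage cells was 13.2 CPM in KO and 14.9 CPM in DKO (log2 0.20, -0.45 to 0.77), and in C1q-high macrophages the log2 ratio was -0.0050 (-0.81 to 0.68), so that a 2-fold change was outside the interval in either setting.

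Ptges, the inducible prostaglandin E synthase that acts after Ptgs2 (chr2:30889471-30929863), lay mainly in 1 state. Of the 309 UMIs in KO, 280 (90.6%) lay in the Arg1/Nos2 inflammatory macrophages, at 177 CPM (157 to 199). The other KO monocyte/macrophage cells held 20 UMIs, 2.77 CPM, so that the state exceeded them 64.0-fold. C1q-high macrophages held 1 UMI, classical monocytes 8, intermediates 5 and the cells of no named state 6, and the remaining 9 UMIs lay in ungated (5), epithelial-gated (2), mixed (1) and B cells (1). Of the 83 KO monocyte/macrophage cells with a Ptges UMI, 68 (81.9%, 72.0 to 89.5%) also had a Ptgs2 UMI, against 35.6% of the 1443 cells without. After thinning the shares were 27 of 38 (71.1%) and 21.8%. Inside the Arg1/Nos2 state they were 77.1% (59.9 to 89.6%) and 48.5% (41.2 to 55.7%) after thinning. A Ptgs1 UMI was found in 1 of the 83 cells.

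In DKO no Ptges UMI was found in any of the 730 kept cells. Among monocyte/macrophage cells, 300 UMIs (34.0 CPM) in KO stood against 0 in DKO, where 3 UMIs would be 1.49 CPM, so Ptges was at least 22.8-fold lower in DKO against that floor of 3 UMIs. The exact interval of the log2 ratio had an upper limit of -4.21, a smaller difference than the floor gives. Outside the Arg1/Nos2 gate the counts were 20 and 0, and the level was at least 1.83-fold lower against the floor, with an upper limit of -0.44. Its call there rests on a log2 ratio of -3.50, made with 0.5 counts added. Ptges was the 1 member called lower outside that gate, with none called higher, where 1.55% of 10616 genes were called lower and 3.04% higher. Within the Arg1/Nos2 gate the UMIs were 280 and 0, but DKO had 3 cells, where a count of 0 allows 136 CPM. The fold against that floor was 1.30, and the interval's upper limit of -0.068 lay close to 0. That interval takes UMIs as independent of the cell that holds them. In KO, 163 of the 230 cells of this state held 0 Ptges UMIs, and the top 23 cells held 67.9% of the UMIs. A lower level inside the state therefore cannot be told from 3 cells.

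**Figure D3:**
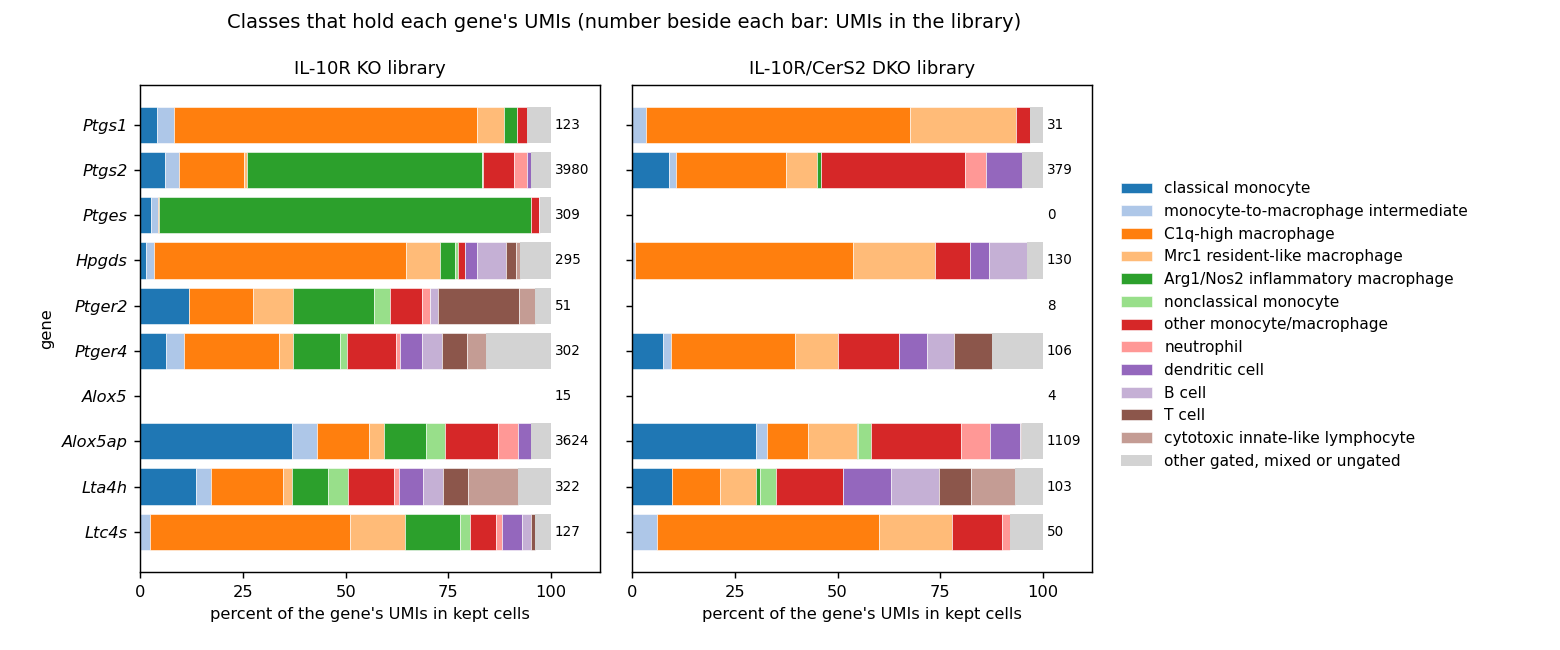
Percent of each gene's UMIs (x axis) that lay in each marker-gated class, in the KO library (left) and the DKO library (right), with the gene's UMIs in kept cells beside each bar and no bar for genes under 20 UMIs. Arg1/Nos2 inflammatory macrophages held 57.3% of the Ptgs2 and 90.6% of the Ptges UMIs in KO, and C1q-high macrophages held 74.0% of the Ptgs1 and 61.4% of the Hpgds UMIs.

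Read over states, 2 of the 9 members with 10 or more UMIs were called higher in KO Arg1/Nos2 inflammatory macrophages than in the other monocyte/macrophage cells (Ptgs2 and Ptges), where 5.85% of genes were. In KO C1q-high macrophages 3 were (Ptgs1, Hpgds and Ltc4s), where 4.31% of genes were, and in KO classical monocytes 1 was (Alox5ap), where 3.67% of genes were. Called lower than the other monocyte/macrophage cells were 2 members in the Arg1/Nos2 state (Ptgs1 and Hpgds), where 6.84% of genes were, and 3 in C1q-high macrophages (Ptgs2, Ptges and Alox5ap), where 5.25% were. In classical monocytes 6 of the 9 were lower (Ptgs1, Ptgs2, Ptges, Hpgds, Ptger4 and Ltc4s), where 7.61% of genes were. The cells set against each state include the other states.

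Hpgds, the hematopoietic prostaglandin D synthase (chr6:65117293-65144908), lay with Ptgs1 in C1q-high and Mrc1 resident-like macrophages. In KO these states had 64.3 CPM (55.3 to 74.4) and 86.2 CPM, with overlapping intervals, against 2.10 CPM in classical monocytes and 6.95 CPM in Arg1/Nos2 inflammatory macrophages. B cells also held Hpgds, 21 UMIs (38.3 CPM, 23.7 to 58.6) in KO and 12 UMIs (27.8 CPM, 14.4 to 48.6) in DKO, while neutrophils held 0. Of the 139 KO monocyte/macrophage cells with an Hpgds UMI, 25.2% also had a Ptgs1 UMI, against 3.68% of those without, and in DKO 15 of 50 cells compared with 3.21%. After thinning, 3 KO cells and 1 DKO cell had both.

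Hpgds was higher in DKO. The monocyte/macrophage level was 26.4 CPM (23.2 to 30.1) in KO, against a DKO level of 53.2 CPM (43.6 to 64.3), and the intervals of the 2 levels did not overlap. The log2 ratio was 1.01 (0.66 to 1.34), just past the 2-fold limit, and it was 0.92 with TMM scaling, 0.96 without the cell with the most UMIs in each library and 0.81 without the Arg1/Nos2-gated cells, none of which was called. In C1q-high macrophages Hpgds was 64.3 CPM in KO and 109 CPM (84.9 to 138) in DKO (log2 0.77, 0.34 to 1.17). In Mrc1 resident-like macrophages 24 and 26 UMIs gave 86.2 and 95.9 CPM (log2 0.15, -0.70 to 1.02). The cells of no named state held 5 UMIs (3.58 CPM) in KO and 11 (22.1 CPM) in DKO, which was called (log2 2.55, 0.98 to 4.50). The Mrc1 state was 2.95% of KO and 14.2% of DKO monocyte/macrophage cells, and with the states weighted as in KO the log2 ratio was 0.74.

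The prostaglandin E receptors were spread more widely. Ptger4 encodes the EP4 receptor (chr15:5206661-5244187) and was seen in myeloid cells and lymphocytes alike. Among the 12 classes plotted it ranged in KO from 9.99 CPM in classical monocytes through 24.9 CPM in C1q-high macrophages, 27.4 CPM in B cells, 29.2 CPM in T cells and 33.0 CPM in dendritic cells to 35.9 CPM in Mrc1 resident-like macrophages. Ungated cells held 90.7 CPM in KO and 93.7 CPM in DKO. In the monocyte/macrophage gate Ptger4 was 21.3 CPM in KO and 34.3 CPM in DKO (log2 0.69, 0.27 to 1.09). In C1q-high macrophages, 70 UMIs (24.9 CPM) in KO and 32 UMIs (50.6 CPM) in DKO gave a log2 value of 1.04 (0.37 to 1.65). Ptger4 was the 1 of 8 members called higher in that state and none was called lower, where 3.06% of 9130 genes were called higher and 1.66% lower. The log2 ratio was 0.94 with TMM scaling, 0.94 with the stricter gate and 0.91 without the cell with the most UMIs in each library, and in each case the call was lost. In T cells (18 and 10 UMIs) and B cells (15 and 7 UMIs) the intervals of the ratio included 0.

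Ptger2 encodes the EP2 receptor (chr14:44988195-45003820) and was sparse, with 51 UMIs in KO and 8 in DKO over all kept cells. KO T cells held 10 of them (16.2 CPM) and DKO T cells 0, where 3 UMIs would be 13.1 CPM. In the monocyte/macrophage cells 35 and 7 UMIs gave 3.97 and 3.48 CPM (log2 -0.11, -1.61 to 1.001), so that a 2-fold change either way lay within what these counts allow.

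**Figure D4:**
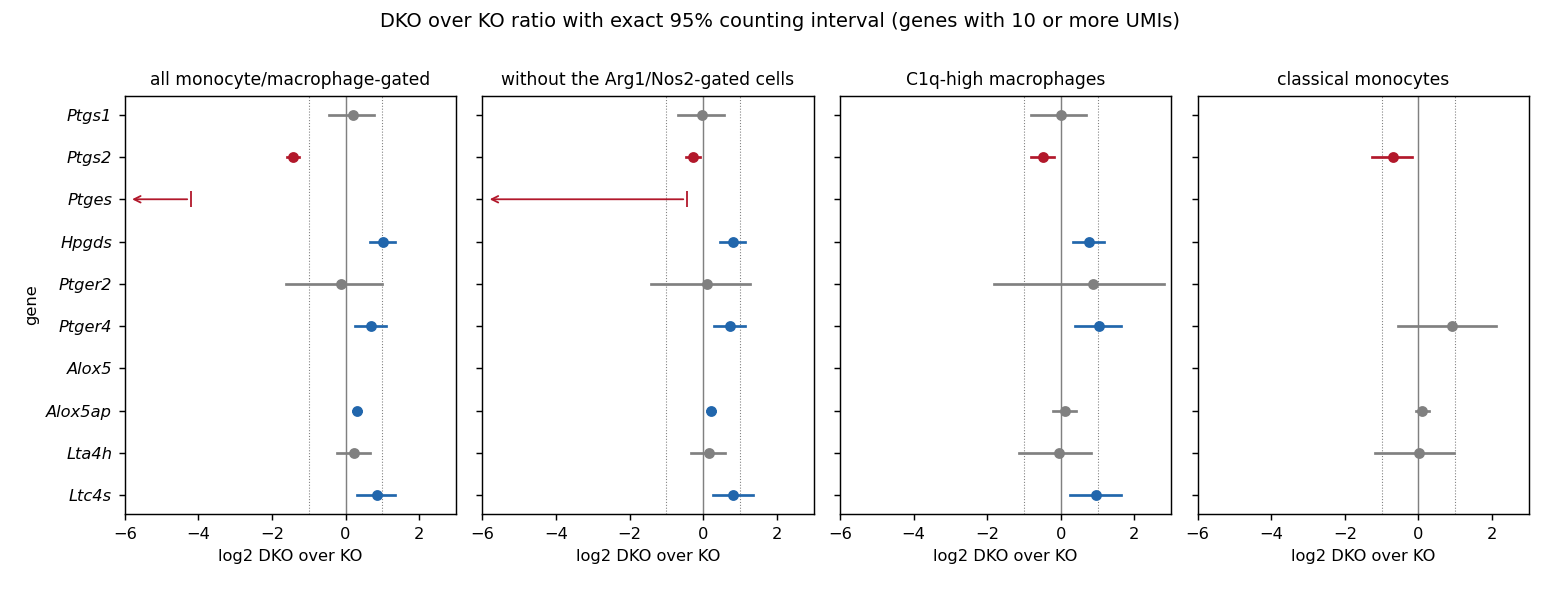
DKO over KO log2 ratio (x axis, points) with its exact 95% counting interval (lines) for the members with 10 or more UMIs over both libraries, in 4 sets of cells, with intervals below 0 in red, above 0 in blue and including 0 in grey, dotted lines at 2-fold, and an arrow for Ptges, which had 0 DKO UMIs and so an upper limit alone. Ptgs2 moves from -1.43 to -0.27 when the Arg1/Nos2-gated cells are left out, while Hpgds moves from 1.01 to 0.81.

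On the leukotriene side, Alox5, the 5-lipoxygenase itself (chr6:116410077-116461178), was close to undetected. It had 15 UMIs in KO and 4 in DKO. Neutrophils held 6 and 1 of them, monocyte/macrophage cells 4 and 2, and in KO 3 lay in epithelial-gated and 2 in mast cell-gated cells. No comparison between the libraries was possible at that depth.

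Alox5ap encodes FLAP, the membrane protein that hands arachidonate to 5-lipoxygenase (chr5:149264767-149288153) and was found across the myeloid classes. KO classical monocytes had 705 CPM (667 to 743) and DKO classical monocytes 756 CPM (677 to 842), which was 37.0% and 30.2% of the gene's UMIs. Neutrophils had 686 CPM (590 to 792) and 1056 CPM (833 to 1320), nonclassical monocytes 557 and 499 CPM, and Mrc1 resident-like macrophages 478 and 487 CPM. C1q-high macrophages had 162 CPM (148 to 178) and 175 CPM (144 to 211), and KO Arg1/Nos2 inflammatory macrophages 238 CPM (214 to 263). B and T cells together held 1 UMI in KO and 4 in DKO. In KO the levels of classical monocytes and neutrophils overlapped, and C1q-high macrophages were the lowest of the monocyte/macrophage states.

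Taken over all states Alox5ap was 358 CPM in KO against 442 CPM in DKO (log2 0.30, 0.19 to 0.41) and was not called. Thinned, 36.0% (33.5 to 38.5%) of KO and 40.9% (35.4 to 46.5%) of DKO cells had a UMI, against 65.9% and 70.9% unthinned, and the thinned intervals overlapped. Within classical monocytes (log2 0.10, -0.075 to 0.28), C1q-high macrophages (0.12, -0.20 to 0.41) and Mrc1 resident-like macrophages (0.026, -0.33 to 0.38) the intervals included 0. In the cells of no named state (0.55, 0.32 to 0.78), neutrophils (0.63, 0.22 to 1.01) and dendritic cells (0.56, 0.13 to 0.99) they lay above 0. In classical monocytes none of the 4 members with enough UMIs was called, where 2.37% of 8091 genes were called higher and 2.2% lower.

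Lta4h makes leukotriene B4 (chr10:93453411-93484875) and was found in both myeloid cells and lymphocytes. In KO it was 53.0 CPM in cytotoxic innate-like lymphocytes, 54.3 CPM in nonclassical monocytes, 39.2 CPM in dendritic cells, 32.5 CPM in T cells, 23.1 CPM in classical monocytes and 20.3 CPM in C1q-high macrophages. In DKO the first 2 of these were 56.0 and 57.0 CPM and the last 2 were 22.6 and 19.0 CPM. Across monocyte/macrophage cells 22.6 CPM in KO and 26.3 CPM in DKO gave a log2 ratio of 0.23 (-0.24 to 0.67), which leaves out a 2-fold change in either direction.

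Ltc4s makes leukotriene C4 (chr11:50236461-50238616) and, like Ptgs1 and Hpgds, had more UMIs in C1q-high macrophages than in any other class. C1q-high macrophages held 62 of the 127 KO UMIs (22.0 CPM, 16.9 to 28.2) and 27 of the 50 DKO UMIs (42.7 CPM, 28.1 to 62.1). Mrc1 resident-like macrophages held 17 (61.1 CPM, 35.6 to 97.8) and 9 (33.2 CPM, 15.2 to 63.0). By level, Ltc4s was therefore highest in the Mrc1 state in KO, with an interval above that of C1q-high macrophages, while in DKO the 2 intervals overlapped. The DKO count in C1q-high macrophages rests in large part on 1 cell, which held 16 of those 27 UMIs. Classical monocytes, where Alox5ap was high, held 0 in both libraries, and 3 UMIs would there be 1.58 CPM in KO and 6.77 CPM in DKO. Of the 76 KO cells with an Ltc4s UMI 44.7% had an Alox5ap UMI, against 67.0% of the rest, and after thinning it was 5 of 25 cells against 36.3%. In all monocyte/macrophage cells Ltc4s was 12.5 CPM in KO and 22.4 CPM in DKO (log2 0.85, 0.31 to 1.35). However, 16 of the 45 DKO UMIs came from that 1 C1q-high macrophage. Without the cell with the most UMIs in each library the log2 ratio was 0.35 over all monocyte/macrophage cells and -0.053 in C1q-high macrophages.

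The rest of the pathway was read from 61 other eicosanoid genes, of which 59 were in the files and 32 had 10 or more UMIs in the monocyte/macrophage cells. Of these 32, 4 were called lower in DKO and 0 higher, against the 2.32% and 3.25% of all genes given above, and their median log2 ratio was 0.0072. Pla2g4a, the cytosolic phospholipase that frees arachidonate, had 404 UMIs (45.8 CPM) in KO and 37 (18.4 CPM) in DKO (log2 -1.30, -1.84 to -0.83). It was also lower outside the Arg1/Nos2 gate, 37.8 against 18.6 CPM (log2 -1.01, -1.56 to -0.52), in C1q-high macrophages (log2 -1.08) and in classical monocytes (log2 -1.08), each of which was called. Its level in KO Arg1/Nos2 inflammatory macrophages was 82.8 CPM, and B and T cells of both libraries held 0 UMIs.

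Pla2g2d, a secreted phospholipase, had 63 and 5 UMIs (log2 -1.40, -3.20 to -0.23), of which C1q-high macrophages held 61 in KO and 3 in DKO. Abcc1, which exports leukotriene C4, was 30.4 CPM in KO and 11.9 CPM in DKO (log2 -1.32, -2.02 to -0.75) and Fpr2, a receptor of lipoxins and formyl peptides, 47.1 and 17.9 CPM (log2 -1.38, -1.93 to -0.90). KO Arg1/Nos2 inflammatory macrophages held 123 of the 268 Abcc1 UMIs and 177 of the 415 Fpr2 UMIs, and without that gate the log2 ratios were -0.71 and -0.89 and neither was called. Within single states, Abcc1 was called lower in C1q-high macrophages, on 56 UMIs (19.9 CPM) in KO and 3 (4.74 CPM) in DKO (log2 -1.86, -4.39 to -0.45), and Fpr2 in classical monocytes, on 91 UMIs (47.8 CPM) and 8 (18.1 CPM), with a log2 ratio of -1.33 (-2.66 to -0.37). The 6 genes given as context, apart from Pla2g4a, were not called over all monocyte/macrophage cells. They were Ptges3, the cytosolic prostaglandin E synthase and co-chaperone (180 and 211 CPM, log2 0.23), Tbxas1, thromboxane synthase (51.6 and 62.1 CPM, log2 0.27), Hpgd, which inactivates prostaglandins (32 and 12 UMIs, log2 0.75), Ltb4r1, the high-affinity leukotriene B4 receptor (31.4 and 27.8 CPM, log2 -0.17), and Cysltr1, a receptor of cysteinyl leukotrienes (19.5 and 21.4 CPM, log2 0.14). The intervals of the last 4 included 0. Ltb4r1 went opposite ways in smaller classes and was called in both, higher in DKO Mrc1 resident-like macrophages (6 UMIs in KO and 20 in DKO, log2 1.69, 0.41 to 3.38) and lower in DKO neutrophils (55 and 6 UMIs, log2 -1.22, -2.83 to -0.11). Of all genes measured, 133 of 5615 were called higher in the Mrc1 state and 148 of 2811 lower in neutrophils.

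The genes most like each member were sought over 18 points, 9 classes with at least 20 cells in both libraries, by Pearson's r of log2(CPM + 1) against 6255 genes with 200 or more UMIs, and the points share the 2 libraries and their depth. Ptgs2 was nearest to Cd300a, Gab2 and Csf2rb (r = 0.98 for each) and Alox5ap to Skap2, Anxa1 and Cd300a (r = 0.97, 0.97 and 0.96). Ptgs1 was nearest to Ccl7, Ccl12 and Gbp2b (r = 0.95, 0.94 and 0.91), Lta4h to Acadl, Arrdc1 and Cct4 (0.97, 0.97 and 0.96) and Ptger4 to Plekhb2, Med6 and E2f3 (0.90 each). Hpgds was nearest to Mtss1, Zc3h12c and Blnk (0.79, 0.79 and 0.78) and Ltc4s to Cxcl1, Trpv2 and Il1a (0.79, 0.76 and 0.75). The Arg1/Nos2 state, with 3 DKO cells, was not among the 9 classes. Ptges held at most 8 UMIs in any of these classes and none in DKO, so no likeness is given for it.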

How the data were processed

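The deposited matrices hold UMI counts, not normalized, for each barcode. The authors had aligned the 10x 3′ reads to mm10 with Cell Ranger 6.0.1, 1 library per genotype. Per the labels Seurat 4.3.0 was also used, for steps after these counts. A count is of transcript 3′ ends, so levels were compared between classes of a gene, not between genes. Overlapping genes on the same strand were found for Ptges alone, a pseudogene that the files do not list. Antisense genes listed in the files overlap Ptger2, Ptger4, Alox5ap and Ltc4s, and Cell Ranger counts by strand.

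The cell filter asked for 300 to 5000 genes and a mitochondrial share of 10% or less. Classes were gated on distinct markers detected per cell (4 of the 12 monocyte/macrophage markers, 3 or 4 of each other list), with the thresholds set after the marker distributions had been seen. Ungated were 182 KO and 59 DKO cells and mixed 39 and 6. Scrublet (scanpy 1.11.5) called 6 and 2 doublets, which were kept. In clusters named from the same markers, which were an alternative, 97.0% and 92.4% of the monocyte/macrophage-gated cells fell in clusters of that name. The share was lowest for the cells of no named state, at 89.3% in KO and 76.8% in DKO.

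UMIs were summed per class and library and given as CPM with exact Poisson intervals. Log2 ratios had 0.5 counts added, with an exact conditional interval, and shares had exact Clopper-Pearson intervals, all at 95%. They cover counting error only. A floor was 3 counts. Cells are not replicates, so no test was run, unlike the study, which imputed values and compared cells. The ratio and call functions were tested on simulated data. Alternatives were TMM scaling (edgeR 4.0.16 in R 4.3.3), other counts added, filters, gates, clusters, doublet scores, state weights, thinning and top cells left out. Genes named from the other eicosanoid list were those called over all monocyte/macrophage cells with 20 or more UMIs and 6 fixed as context. Calls in single classes were given for these genes. Also called in single classes, and not described above, were Fam213b (lower in DKO C1q-high macrophages), Pla2g15 (lower in DKO classical monocytes) and Pla2g7 (lower in DKO Mrc1 resident-like macrophages). Mgst3 was called higher in DKO B cells and Mgst2 higher in DKO T cells. Likeness was ranked for members with 100 or more UMIs, gate markers left out, and is not given for Ptges.

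The members, lists and markers were chosen with earlier results of these data known. Cell names of the study were not used.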

Additional observations from a re-analysis of the deposited data

Results flagged for a closer look

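Ptgs2 moved in opposite directions between DKO and KO in different classes, each with a counting interval that left out 0. Its log2 ratio of DKO over KO was 0.32 in the monocyte/macrophage cells of no named state, against -0.68 in classical monocytes, -1.51 in monocyte-to-macrophage intermediates, -0.48 in C1q-high macrophages, -3.18 in Arg1/Nos2 inflammatory macrophages and -0.78 in neutrophils. The difference between classes was not tested, since each genotype had 1 library. The Arg1/Nos2 value rests on 3 DKO UMIs, all in 1 of 3 cells, and the intermediate value on 6 DKO UMIs. In the cells of no named state, 29 of the 133 DKO UMIs came from 1 cell, and 82 DKO cells entered against 291 KO cells. Of these, 76.8% of the DKO and 89.3% of the KO cells fell in clusters named monocyte/macrophage. With 1 more marker asked of each gate, the log2 ratio in the cells of no named state was -0.18, and without the cell with the most UMIs in each library it was 0.12.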

How the results depend on the processing

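With 1 library per genotype, precision was limited by counting, and no alternative stands in for a second mouse. Over the monocyte/macrophage cells, 122 of 130 ratios recomputed under the alternatives lay within the counting interval of the value given. The other 8 were Ptgs2 from clusters (log2 -1.66), without Arg1/Nos2-gated cells (-0.27), with states weighted as in KO (-0.35) and with cells thinned to 1500 UMIs (-1.02) or to 2000 UMIs (-1.67), Ptges without Arg1/Nos2-gated cells (20 and 0 UMIs, -3.50 on the scale with 0.5 counts added), Alox5ap with states weighted as in KO (0.16) and Ptgs1 with cells thinned to 1500 UMIs (0.92, on 35 and 14 UMIs) but not to 2000 (0.19). The depth of 2000 was tried first and 1500 was taken after its values had been seen, and Ptgs2 stayed lower in DKO at both. By construction the settings without the Arg1/Nos2 state and with weighted states leave that state out. For clusters and thinning the cause was not tested.

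In C1q-high macrophages, recomputed as alternatives chosen after the data had been seen, 62 of 64 ratios lay within the interval, Alox5ap under the stricter gate was 0.63, and Ltc4s reversed to -0.053 without the cell with the most UMIs in each library, which held 16 of the 27 DKO UMIs. Ptgs2 in the cells of no named state reversed to -0.18 under the stricter gate. TMM scaling, which shifted the log2 ratios of all genes by -0.095, left 0 members called higher in DKO in place of 1 (Hpgds). Unthinned shares of cells were 38.1% and 25.8% for Ptgs2 and 65.9% and 70.9% for Alox5ap in KO and DKO. The share of a member's UMIs in monocyte/macrophage cells stayed within its interval in 30 of 38 recomputations, and the 8 others came from clusters, where the DKO share was 52% in place of 90% for Ltc4s, 62.0% in place of 81.0% for Ptgs2 and 68.9% in place of 80.2% for Alox5ap. No paired analysis was possible because each genotype had 1 library.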
